A study of Homo sapiens with 12 samples.

Results

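Control Hep-G2 cells were compared with control BE(2)-C cells, that is, the baseline transcriptomes of a liver cancer line and a neuroblastoma line before any knockdown. The members were chosen by their labels, as the libraries of both lines made after transfection with the control siRNA, and they comprised 6 of the 12 libraries analysed in the series. The study asked which RNAs depend on the RNA-binding protein IGF2BP1, and the 6 libraries with the IGF2BP1-directed siRNA pool were not used here. The first group held 3 libraries of Hep-G2, grown in DMEM with FBS, and the second held 3 libraries of BE(2)-C, grown in a mixture of EMEM and DMEM/F12 with FBS. Both groups received the same control siRNA, CEL-miR-239b, at a higher concentration in BE(2)-C, and RNA was taken 72 h after transfection. Poly-A RNA was sequenced from both ends in strand-specific libraries, and the study's methods name the 3 libraries of a condition biological replicates. Each line is one established culture, and line, medium, siRNA concentration and deposited table change together, so their parts in any difference cannot be told apart.

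Hep-G2 was derived from a hepatoblastoma, and cells of this kind keep much of the program of fetal hepatocytes, which secrete the proteins of blood plasma under the control of factors such as HNF4A, FOXA and C/EBP. BE(2)-C was derived from a MYCN-amplified neuroblastoma, a tumour of the sympathoadrenal branch of the neural crest. Neuroblasts of the adrenergic type depend on a circuit of transcription factors that includes HAND2, GATA3 and ISL1, and they make catecholamines and store them in dense core granules.

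Between 13465944 and 15176939 reads were counted on genes in the Hep-G2 libraries and between 12852988 and 14662575 in those of BE(2)-C. The deposited values, read as FPKM from their form since no header names a unit, were scaled in each library to the same sum over all 58174 listed genes, which gives TPM and cancels the scaling that the authors applied to each table on its own. Every level below is such a value set across the 2 tables. Genes with at least 0.1 TPM in at least 3 of the 6 libraries were compared with limma on log2(TPM + 0.1), a scale that understates the changes of low genes, and a gene was called at an adjusted p below 0.05. Of 14732 tested protein-coding genes, 7291 (49.5%) were called higher in Hep-G2, with 5197 (35.3%) higher in BE(2)-C. Differences of at least 4-fold were found in 2993 protein-coding genes (20.3%) towards Hep-G2 and in 1973 (13.4%) towards BE(2)-C. Across the tested protein-coding genes the log2 fold change, Hep-G2 over BE(2)-C, had a median of 0.33 and a median size of 1.26. These shares are the background for every list of genes described here, since most tested genes were called. In every list, a gene below 0.1 TPM in all libraries of one line could pass the filter only through the other line, so the direction of its call says little. In bulk RNA, fewer cells of a type and less RNA per cell cannot be told apart.

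The scaling bears on this balance. Among 11631 genes with at least 1 TPM in all 6 libraries, the median log2 TPM was 4.64 ± 0.03 (SD, n = 3) in Hep-G2 and 4.28 ± 0.04 (SD, n = 3) in BE(2)-C, a shift of 0.36. With the medians of these genes set equal, 6085 protein-coding genes were higher in Hep-G2, with 6359 higher in BE(2)-C, so that 48.9% of the calls, in place of 58.4%, were towards Hep-G2, and 72 genes were called in the opposite direction. Log2 fold changes between 0 and 0.36 therefore change sign with the scaling. The strand setting of the counting is not given in the sources used here, so the levels of genes whose exons overlap another gene over at least 20% of their length are uncertain, among them CEBPA, IGF2, HAND2, NEFM, SLC6A2, VIM, AXIN2, LDHB, UCHL3, B4GALNT1, RPS2 and HOXD1. Pearson's r of log2 TPM over the 11631 genes (genes are no replicates) was 0.988 to 0.990 within a line and 0.720 to 0.734 between the lines. Replicates of a line differed by more than the sampling noise of their reads, which does not show that they are independent, and the p-values measure the spread between these libraries. In the plot of levels in both lines, most genes lie along the diagonal and both margins are filled with genes that are at or near 0 in one line.

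**Figure D1:**
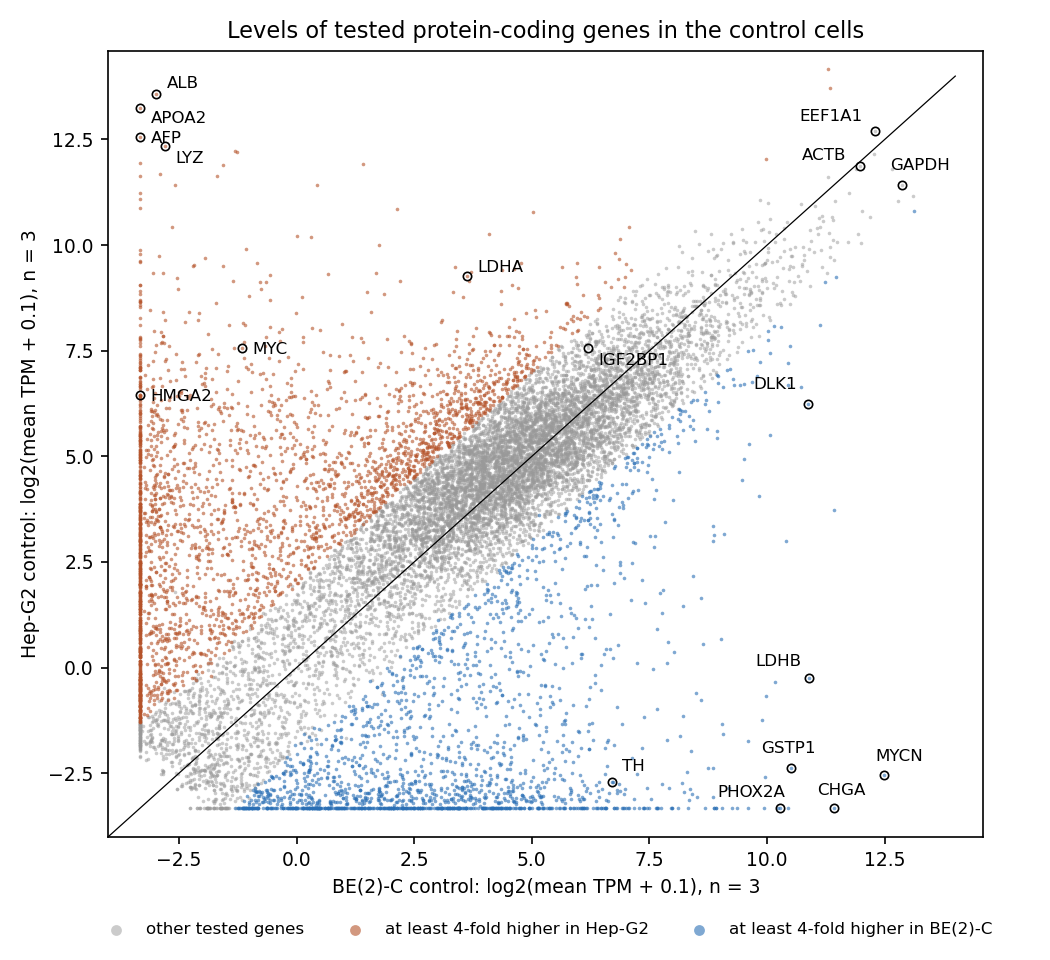
Each point is 1 of the tested protein-coding genes, placed by log2(mean TPM + 0.1) of the 3 control libraries of BE(2)-C (horizontal axis) and of Hep-G2 (vertical axis), with genes at least 4-fold higher and called by limma in Hep-G2 in brown (2993) and in BE(2)-C in blue (1973). The line marks equal levels, circles mark genes named in the text, and points at the lowest value on either axis have 0 reads in that line.

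Plasma protein genes gave Hep-G2 its most abundant line-restricted messages. All 20 genes of the list of hepatocyte plasma proteins were higher in Hep-G2, against 49.5% of all tested protein-coding genes, with a median log2 fold change of 13.03, or 13.59 with the 12 genes that had 0 reads in BE(2)-C at their lower bounds and 4 genes of at most 3 reads in one line at the ratio of pooled levels, as in all such medians below. These 12 genes passed the filter only through Hep-G2, so the direction of their calls says little. The sum over the 20 genes was 50729, 50194 and 49876 TPM in Hep-G2 against 2.44, 1.45 and 0.551 TPM in BE(2)-C. In Hep-G2 these genes took 5.07%, 5.02% and 4.99% of all TPM, whereas 18, 9 and 5 of the counted reads fell on them in BE(2)-C. ALB, the gene of serum albumin and the most abundant of the list, had TPM of 12712, 11660.0 and 12262 in Hep-G2 against 0, 0.0803 and 0 in BE(2)-C. Every Hep-G2 library was high and only 1 BE(2)-C library held a read, giving a ratio of 492288 (95% counting interval 88356 to 19444300.0). Such ratios and the lower bounds given below cover counting error only, and a bound sets the reads of one line against a floor of 3 reads over the 3 libraries of the other. The TPM of APOA2, an apolipoprotein of high-density lipoprotein, was 9239.6, 10282 and 9543 in Hep-G2 against 0, 0 and 0 in BE(2)-C. APOB, the backbone of low-density lipoprotein, had 2418, 1874 and 2244 in Hep-G2 against 0, 0 and 0 in BE(2)-C. Both genes were high in each Hep-G2 library and had 0 reads in each BE(2)-C library, and they were at least 36330.2-fold and at least 128858-fold higher in Hep-G2.

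The other plasma protein genes followed the same order. SERPINA1, which encodes the elastase inhibitor alpha-1 antitrypsin, had TPM of 3282, 3315 and 3196 in Hep-G2 against 0.0482, 0 and 0.0509 in BE(2)-C, a ratio of 95368 (95% counting interval 26401 to 787487). The groups were far apart, with 2 reads of SERPINA1 in BE(2)-C against 181436 in Hep-G2. APOH, a phospholipid-binding plasma protein, was at least 20802-fold higher in Hep-G2, AHSG (fetuin-A) at least 29748-fold and ITIH2, a heavy chain of the inter-alpha-trypsin inhibitors, at least 32226-fold, all with 0 reads in BE(2)-C. Levels within the list spanned a wide range in Hep-G2, from HPX (hemopexin, a heme carrier) at 26.0, 24.5 and 25.1 TPM and HP (haptoglobin) at 72.7, 63.8 and 72.1 TPM to albumin. HPX and HP were the lowest of the list in all 3 Hep-G2 libraries, yet BE(2)-C had 0 reads of HPX and 1 of HP. AKR1B10, an aldo-keto reductase often raised in liver cancer, was not part of the list but was among the 10 protein-coding genes with the largest fold changes towards Hep-G2, with 1933, 1828 and 1873 TPM in Hep-G2, 0 reads in BE(2)-C and a difference of at least 13028-fold.

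The promoters of APOA2 and AFP, the gene of alpha-fetoprotein, are shown because both genes were abundant in Hep-G2 with 0 reads in BE(2)-C and hold, close to the start, the recognition letters of FOXA factors (APOA2) or of a TATA box (AFP). They were picked after the matches to all searched motifs were seen. The FOXA letters were also found in the promoters of PCSK1 and GSTP1, genes that were higher in BE(2)-C. The letters TGTTTAC of FOXA and TATAAA of the TATA box were searched on both strands from 250 bases before to 50 bases after the start, and 3.41% and 11.95% of the 27305 promoters of the table hold them. The sequences are from RefSeq GRCh38.p14, run from 5′ to 3′ on the strand of the gene and end at the last base before its start. APOA2 lies at chr1:161223629-161223728 on the minus strand and AFP at chr4:73436121-73436220 on the plus strand. Capitals mark the FOXA letters of APOA2, read on the opposite strand, and the TATA box of AFP. A match describes these letters only and was not tested as a binding site.
APOA2: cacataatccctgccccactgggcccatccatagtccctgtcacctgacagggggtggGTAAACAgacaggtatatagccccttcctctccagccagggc
AFP: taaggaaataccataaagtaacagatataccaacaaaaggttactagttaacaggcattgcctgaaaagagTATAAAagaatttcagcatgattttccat

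The transcription factors of hepatocytes were higher in Hep-G2 in 16 of 18 cases, with a median log2 fold change of 5.33 (5.34 with 8 genes at bounds and 2 at ratios). HNF4A, a nuclear receptor at the centre of this network, had TPM of 165, 162 and 171 in Hep-G2 against 0, 0 and 0 in BE(2)-C. It was present in every Hep-G2 library and had 0 reads in every BE(2)-C library, a difference of at least 4827-fold. The pioneer factor FOXA2 had 61.2, 57.8 and 65.2 TPM in Hep-G2 and 0 reads in BE(2)-C, which made it at least 636-fold higher. CEBPA, a leucine zipper factor of metabolic tissues, had 175, 175 and 179 TPM in Hep-G2 against 4.67, 4.23 and 4.74 TPM in BE(2)-C, so that BE(2)-C was low but not at 0. GATA4 went the other way, with 47.5, 43.2 and 43.7 TPM in Hep-G2 against 102, 89.4 and 97.5 TPM in BE(2)-C. All 3 BE(2)-C libraries were above all 3 of Hep-G2 for GATA4 (log2 fold change -1.10, SE 0.07, limma adjusted p = 1.4e-05). NR1I3, the xenobiotic receptor CAR, was not called, with 0.849, 0.839 and 0.397 TPM in Hep-G2 against 0.930, 1.48 and 1.89 TPM in BE(2)-C and a log2 fold change of -0.96 (limma adjusted p = 0.062).

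**Figure D2:**
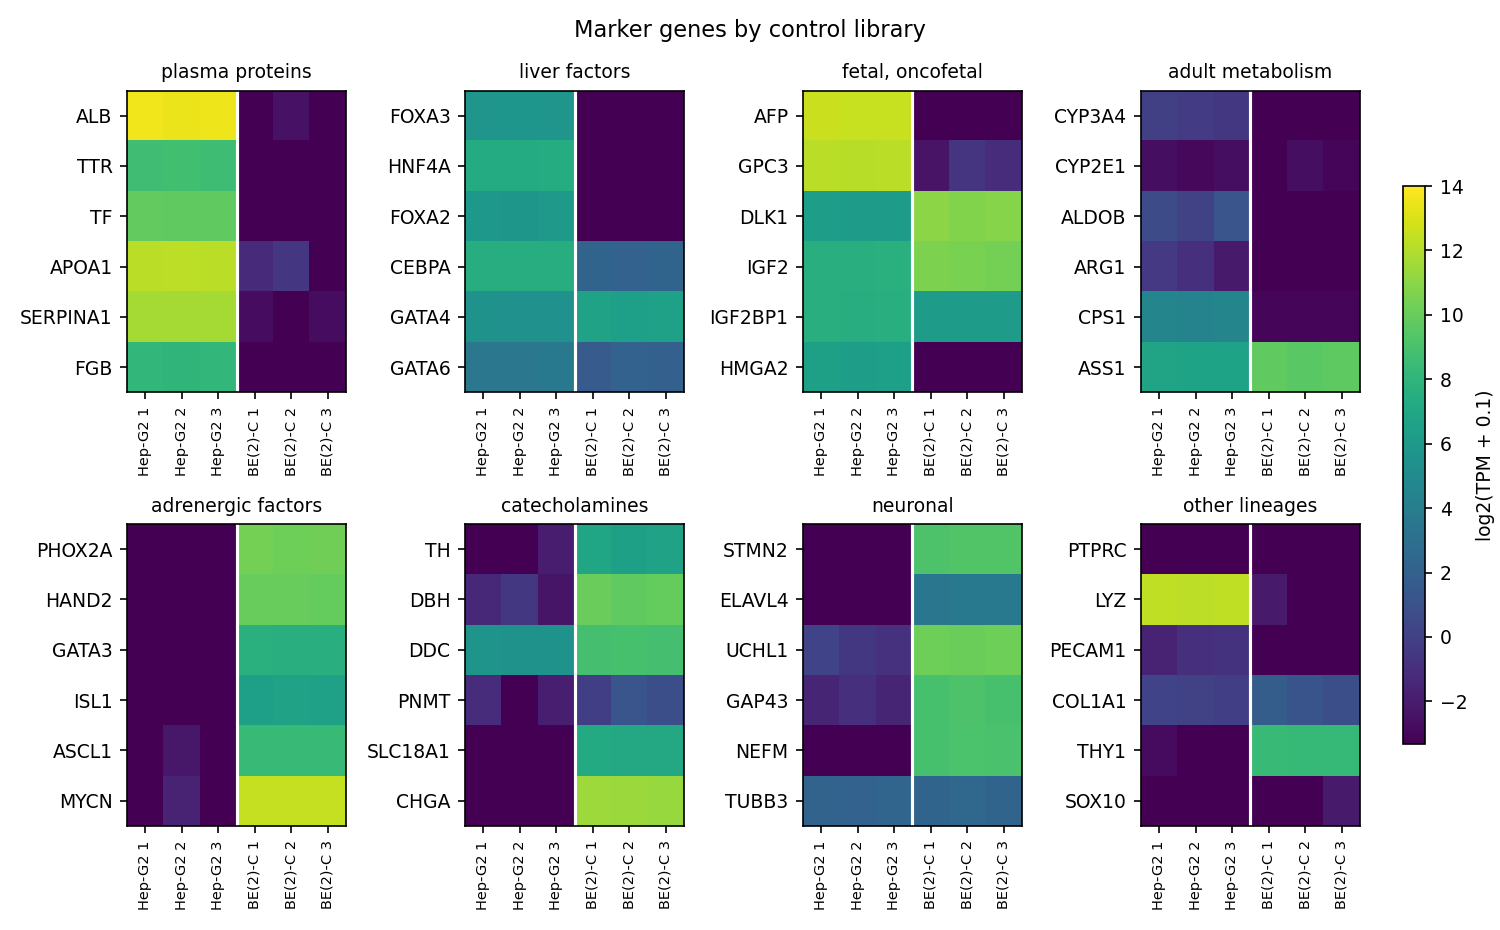
Each row is a gene and each column 1 of the 6 control libraries, with the 3 Hep-G2 libraries left of the white line, and colour gives log2(TPM + 0.1) on 1 scale for all 8 blocks. Plasma protein genes and most liver factors are bright in Hep-G2 alone, and most adrenergic, catecholamine and neuronal genes in BE(2)-C alone. GATA4, DLK1, IGF2 and ASS1 are higher in BE(2)-C. DDC also has a clear level in Hep-G2, and PNMT and TUBB3 are low in both lines.

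Fetal liver and oncofetal genes were divided between the lines, with 10 of 14 higher in Hep-G2, with 4 higher in BE(2)-C and a median log2 fold change of 2.36, unchanged with bounds and ratios. AFP, the albumin-like protein of fetal plasma, had TPM of 6249, 5915 and 5972 in Hep-G2 against 0, 0 and 0 in BE(2)-C. Each Hep-G2 library was high and each BE(2)-C library had 0 reads, so that AFP was at least 78358-fold higher in Hep-G2. GPC3, a heparan sulfate proteoglycan of fetal liver and liver cancer, had TPM of 4806, 4611 and 4632 in Hep-G2 against 0.0872, 0.5002 and 0.368 in BE(2)-C, again without overlap, from 144063 reads against 10 (log2 fold change 13.61, SE 0.42). DLK1, a membrane protein used as a hepatoblast marker that is also made in the adrenal medulla, had TPM of 78.1, 74.0 and 74.2 in Hep-G2 against 2042, 1713 and 1844 in BE(2)-C. Here all BE(2)-C libraries were the higher ones, with a log2 fold change of -4.62 (SE 0.07, limma adjusted p = 7.7e-08). IGF2, a fetal growth factor, went in the same direction as DLK1, with 193, 193 and 205 TPM in Hep-G2 against 1536, 1493 and 1306 TPM in BE(2)-C. The imprinted transcript H19, which neighbours IGF2, had only 1 read in Hep-G2 and 59 in BE(2)-C. HMGA2, a chromatin protein of embryonic cells, had 91.4, 83.0 and 88.8 TPM in Hep-G2 and 0 reads in BE(2)-C, and was at least 5378-fold higher.

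IGF2BP1 itself, on chromosome 17 at 48997385 to 49056145 of hg38, and its paralogues belong to the oncofetal list. IGF2BP1 had TPM of 192, 176 and 196 in Hep-G2 against 72.3, 71.8 and 75.5 in BE(2)-C. Both lines expressed it, all Hep-G2 libraries were above all BE(2)-C libraries, and the log2 fold change was 1.36 (SE 0.05, limma adjusted p = 1.9e-06). IGF2BP3 was also present in both, with 53.7, 48.0 and 53.1 TPM in Hep-G2 against 28.6, 28.9 and 31.6 TPM in BE(2)-C and a log2 fold change of 0.80 (SE 0.07). IGF2BP2 had 111, 111 and 111 TPM in Hep-G2 against 0, 0.115 and 0.0527 TPM in BE(2)-C. It was present in Hep-G2 alone apart from 3 reads, a ratio of 2087 (95% counting interval 714 to 10119), so that the lines differed in which family members they made. Of 17 target or candidate target genes of IGF2BP1, collected here from different places of the study's text and not a list of the study, 7 were higher in Hep-G2, 6 higher in BE(2)-C and 4 not called, with a median log2 fold change of 0.01 that turned to -0.35 with medians set equal. A collection of this kind is no independent evidence of a direction. HMGA2 and MYC, described below, had the largest differences towards Hep-G2 among these targets, while the cell cycle factor E2F1 had 68.0, 68.5 and 64.1 TPM in Hep-G2 against 327, 295 and 291 TPM in BE(2)-C, higher in all BE(2)-C libraries (log2 fold change -2.18, SE 0.06).

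Most genes of adult hepatocyte metabolism were low in both lines, with 10 of 22 at a mean of at least 1 TPM in Hep-G2 and 2 in BE(2)-C. Of 22 genes, 17 passed the filter on low values, 16 of them higher in Hep-G2, with 1 higher in BE(2)-C, with a median log2 fold change of 3.56 (4.07 with 9 genes at bounds and 5 at ratios). A gene near 0 in BE(2)-C passed the filter only through its level in Hep-G2, so the direction of these calls says little. CYP3A4, a main drug-oxidizing enzyme of adult liver, had 0.893, 0.706 and 0.584 TPM in Hep-G2 and 0 reads in BE(2)-C. CYP2E1, which oxidizes ethanol, had 0.0530, 0.0288 and 0.0545 TPM in Hep-G2 against 0, 0.0564 and 0.0259 TPM in BE(2)-C, from 5 and 3 reads, and was not tested. Neither enzyme reached 1 TPM in any library. CPS1, the entry enzyme of the urea cycle, had 23.6, 21.7 and 23.0 TPM in Hep-G2 against 0.0226, 0.0260 and 0.0239 TPM in BE(2)-C, a ratio of 945 (95% counting interval 323 to 4583). ARG1, the last enzyme of the same cycle, had 0.649, 0.423 and 0.133 TPM in Hep-G2 from 9 reads and 0 reads in BE(2)-C. ASS1, which joins citrulline and aspartate, was the gene of this list that was higher in BE(2)-C, with 110.3, 107 and 106 TPM in Hep-G2 against 869.5, 775 and 815 TPM in BE(2)-C (log2 fold change -2.92, SE 0.05, limma adjusted p = 1.1e-07). The levels of the cycle's enzymes in Hep-G2 thus ran from near 0 to over 100 TPM. HPD, of tyrosine breakdown, with 639, 688 and 632 TPM and UGT2B7, a glucuronosyltransferase, with 194, 195 and 196 TPM were the most abundant genes of the list in Hep-G2, with 1 and 0 reads in BE(2)-C.

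The adrenergic transcription factors were the mirror image of the plasma proteins. All 20 genes were higher in BE(2)-C, against 35.3% of all tested protein-coding genes, with a median log2 fold change of -9.27, or -9.63 with 11 genes at bounds and 4 at ratios. The 11 genes had 0 reads in Hep-G2 and passed the filter only through BE(2)-C, so the direction of their calls says little. The sum over the 20 genes was 36.0, 33.0 and 36.3 TPM in Hep-G2 against 11956, 11563 and 11856 TPM in BE(2)-C. PHOX2A, a homeodomain factor of noradrenergic neurons, had TPM of 1313, 1162 and 1229 in BE(2)-C against 0, 0 and 0 in Hep-G2. The basic helix-loop-helix factor HAND2 had 989, 1009.5 and 957 in BE(2)-C against 0, 0 and 0 in Hep-G2. For both genes every BE(2)-C library was high and every Hep-G2 library had 0 reads, which made them at least 8351-fold and at least 13402-fold higher in BE(2)-C. HAND1, a close relative of HAND2 better known from heart and placenta, was more abundant than HAND2 in each BE(2)-C library, with 1459.8, 1329.5 and 1385 TPM in BE(2)-C against 0, 0 and 0 TPM in Hep-G2, and was at least 9161-fold higher than in Hep-G2. GATA3, a zinc finger factor of this circuit, had 202, 199 and 193 TPM in BE(2)-C and the LIM homeodomain factor ISL1 88.1, 102 and 96.7 TPM, both with 0 reads in Hep-G2. GATA2, TBX2 and KLF7 were the members with a mean of at least 1 TPM in Hep-G2, at 17.2, 14.9 and 17.8 TPM for GATA2 against 933, 888 and 904 in BE(2)-C. The GATA2 levels did not overlap (log2 fold change -5.77, SE 0.07).

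MYCN, the proto-oncogene that gives this neuroblastoma its amplicon, had the largest fold change of all protein-coding genes towards BE(2)-C. Its TPM was 5729.5, 5632 and 5831 in BE(2)-C against 0, 0.213 and 0 in Hep-G2. It was the most abundant transcription factor of the list in each BE(2)-C library, with 177877 reads against 2 in Hep-G2, a ratio of 84602 (95% counting interval 23420.2 to 698584). MYCN lies on chromosome 2 of hg38 at 15940550 to 15947007. Of 11 genes in its chromosomal neighbourhood, 9 passed the filter, 5 higher in BE(2)-C and 4 higher in Hep-G2, with a median log2 fold change of -0.19. With MYCN counted, as in the figure of the lists, the median was -0.52 (-0.88 with medians set equal). MYCNOS, the antisense transcript of MYCN, had 291, 351 and 309 TPM in BE(2)-C against 0, 0 and 0 TPM in Hep-G2, at least 919-fold higher in BE(2)-C, although its exons overlap those of MYCN, which leaves its level uncertain. DDX1, the RNA helicase next to MYCN that is often amplified with it, had 267, 307 and 289.6 TPM in BE(2)-C against 252, 246 and 256 TPM in Hep-G2. The levels of DDX1 in the lines were close, with the highest Hep-G2 library below the lowest of BE(2)-C and a log2 fold change of -0.19 (SE 0.06, limma adjusted p = 0.021), in contrast to MYCN. NBAS, the gene beyond DDX1, was higher in Hep-G2, with 35.8, 29.7 and 34.3 TPM in Hep-G2 against 21.8, 20.6 and 24.3 TPM in BE(2)-C. TRIB2, a pseudokinase farther along the arm, had 213, 221 and 233 TPM in BE(2)-C against 3.28, 3.51 and 3.54 TPM in Hep-G2, and VSNL1, a neuronal calcium sensor, had 68.9, 65.6 and 64.5 TPM in Hep-G2 against 0, 0 and 0.0651 TPM in BE(2)-C. Neighbours of MYCN thus differed in both directions.

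The machinery of catecholamine synthesis and storage was largely restricted to BE(2)-C. Of 16 genes, 13 were higher in BE(2)-C, 2 were higher in Hep-G2 and GCH1 was not called, with a median log2 fold change of -8.24, also with bounds and ratios. TH, which makes DOPA in the rate-limiting step, had TPM of 117, 94.0 and 101 in BE(2)-C against 0, 0 and 0.162 in Hep-G2. DBH, which turns dopamine into noradrenaline, had 1041, 879 and 942 in BE(2)-C against 0.277, 0.602 and 0.0949 in Hep-G2. In both genes all BE(2)-C libraries stood far above all Hep-G2 libraries, which held 2 reads of TH and 10 of DBH. DDC, the decarboxylase between these steps, had 485, 498 and 478 TPM in BE(2)-C against 49.7, 48.7 and 47.8 TPM in Hep-G2 and was the enzyme of the pathway with a clear level in Hep-G2 (log2 fold change -3.32, SE 0.03, limma adjusted p = 2.4e-08). PNMT, which methylates noradrenaline to adrenaline, had 0.811, 2.23 and 1.71 TPM in BE(2)-C against 0.350, 0 and 0.180 TPM in Hep-G2, from 27 and 3 reads. PNMT was low in every library, in contrast to the enzymes before it. SLC18A1, a vesicular monoamine transporter, had 154, 137 and 141 TPM in BE(2)-C and 0 reads in Hep-G2, and SLC6A2, the noradrenaline transporter of the cell surface, had 309, 316 and 324 TPM in BE(2)-C against 0.0467, 0.102 and 0.0960 TPM in Hep-G2. MAOA, a monoamine oxidase that liver cells also make, had 15.04, 13.6 and 17.2 TPM in Hep-G2 against 1.45, 2.16 and 2.75 TPM in BE(2)-C, with each Hep-G2 library above each BE(2)-C library (log2 fold change 2.83, SE 0.24). GCH1, which makes the cofactor of TH, had 50.46, 46.7 and 53.9 TPM in Hep-G2 against 41.7, 42.8 and 55.7 TPM in BE(2)-C, with overlapping groups (limma adjusted p = 0.42).

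Granule proteins were among the most abundant line-restricted messages of BE(2)-C. CHGA, the chromogranin used as a serum marker of neuroendocrine tumours, had TPM of 2877, 2717 and 2585 in BE(2)-C against 0, 0 and 0 in Hep-G2. Its relative SCG2 had 721, 792 and 803 in BE(2)-C against 0, 0 and 0 in Hep-G2. Both were high in each BE(2)-C library and had 0 reads in Hep-G2, and were at least 32007-fold and at least 7922-fold higher in BE(2)-C. PCSK1, a prohormone convertase of the granules, was at the other end of the list with 0.668, 0.920 and 1.03 TPM in BE(2)-C from 55 reads, and 0 reads in Hep-G2, at least 17.4-fold higher. GAL, the neuropeptide galanin, was outside the list but among the 10 largest fold changes, with 1016, 1015 and 969 TPM in BE(2)-C against 0, 0 and 0.202 TPM in Hep-G2 and a ratio of 14746 (95% counting interval 2647 to 582440.0). HMP19, a vesicle protein of neurons, had 1189, 1211 and 1185 TPM and LAMP5, a membrane protein of neurons, had 675, 641 and 649.8 TPM in BE(2)-C, both with 0 reads in Hep-G2, and were also among the 10 largest fold changes towards BE(2)-C.

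The promoters of CHGA, SLC18A2, the second vesicular monoamine transporter, and PCSK1 are shown because these granule genes of very different levels share the letters TGACGTCA of the cyclic AMP response element, a palindrome that reads alike on both strands. Of the 27305 promoters searched in the same window, 1.98% hold these letters, and the match was not tested as a binding site. The promoters were picked for this match. That of PCSK1 also holds the FOXA letters, read on the opposite strand and left in lower case. The sequences are from RefSeq GRCh38.p14, each on the strand of its gene up to the last base before the start, with the element in capitals. CHGA lies at chr14:92923050-92923149 on the plus strand, SLC18A2 at chr10:117241014-117241113 on the plus strand and PCSK1 at chr5:96433249-96433348 on the minus strand. SLC18A2 had 4.76, 5.26 and 5.93 TPM in BE(2)-C against 0.371, 0.0672 and 0 TPM in Hep-G2, higher in each BE(2)-C library, with exons that overlap another gene over 56.4% of their length.
CHGA: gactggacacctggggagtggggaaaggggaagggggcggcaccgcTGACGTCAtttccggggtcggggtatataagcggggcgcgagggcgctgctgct
SLC18A2: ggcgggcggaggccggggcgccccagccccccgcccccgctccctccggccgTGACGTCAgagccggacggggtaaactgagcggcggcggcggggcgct
PCSK1: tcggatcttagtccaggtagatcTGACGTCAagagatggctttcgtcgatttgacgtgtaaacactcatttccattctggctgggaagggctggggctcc

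Genes of the neuronal cytoskeleton and synapse were higher in BE(2)-C in 29 of 30 cases, with a median log2 fold change of -7.70 (-8.56 with 5 genes at bounds and 7 at ratios). Their sum was 112, 107 and 112 TPM in Hep-G2 against 7410.4, 7522 and 7374 TPM in BE(2)-C. UCHL1, the neuronal ubiquitin hydrolase PGP9.5, was the most abundant of them in BE(2)-C, with 1180.0, 1122 and 1160.5 TPM in BE(2)-C against 1.01, 0.608 and 0.460 TPM in Hep-G2. Each BE(2)-C library was far above each Hep-G2 library, with a log2 fold change of -10.57 (SE 0.24, limma adjusted p = 2.9e-07). STMN2, a regulator of microtubules in growth cones, had 565, 638 and 628 TPM in BE(2)-C and 0 reads in Hep-G2, at least 5435-fold higher. NEFM, a subunit of neurofilaments, had 501, 556 and 518 TPM and the RNA-binding protein ELAVL4 11.04, 12.5 and 12.8 TPM in BE(2)-C, both with 0 reads in Hep-G2. MAP1B, a microtubule-associated protein, was the most abundant gene of the list in Hep-G2, with 56.2, 50.03 and 53.4 TPM in Hep-G2 against 108, 117 and 129 TPM in BE(2)-C, still lower there than in any BE(2)-C library. TUBB3, the beta-tubulin isotype used as a neuronal marker, was the gene of this list that was not called, with 4.49, 4.19 and 4.97 TPM in Hep-G2 against 4.70, 5.75 and 4.68 TPM in BE(2)-C (limma adjusted p = 0.38). The groups overlapped at this low level, and 21.3% of its exons overlap another gene on the same strand. The readthrough gene AC092143.1 lies over TUBB3 and is listed at 0 in all 6 libraries, and the level of TUBB3 is uncertain. AC092143.1 was looked at after the values of TUBB3 were seen. The neural cell adhesion molecule L1CAM, by contrast, had 502, 427 and 479 TPM in BE(2)-C against 8.07, 8.93 and 9.04 TPM in Hep-G2.

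Of 14 neurotrophin receptors and surface antigens of neuroblastoma, 12 passed the filter, 11 higher in BE(2)-C and 1, the neurotrophin receptor NGFR, higher in Hep-G2, with a median log2 fold change of -3.16 (-4.74 with 1 gene at its bound and 4 at ratios). RET, ALK, GFRA2 and ST8SIA1 were below 0.1 TPM in each Hep-G2 library and passed the filter only through BE(2)-C, so the direction of their calls says little. RET, the receptor kinase for ligands of the GDNF family, was the most abundant in BE(2)-C, with 166, 156 and 175 TPM and 0 reads in Hep-G2, at least 4336-fold higher. ALK, a receptor kinase mutated in part of neuroblastomas, had 8.52, 7.57 and 8.82 TPM in BE(2)-C against 0, 0.0397 and 0.0750 TPM in Hep-G2, a ratio of 220.1 (95% counting interval 75.3 to 1067). NTRK2, the receptor of brain-derived neurotrophic factor, was listed at 0 in all 6 libraries. CD276, an immune checkpoint molecule of many tumours, was abundant in both lines, with 119, 104 and 109 TPM in BE(2)-C against 75.8, 73.3 and 73.6 TPM in Hep-G2 and no overlap (log2 fold change -0.57, SE 0.06). B4GALNT1, the synthase of the gangliosides GM2 and GD2, had 17.99, 15.7 and 17.9 TPM in BE(2)-C against 14.8, 14.4 and 14.4 TPM in Hep-G2. ST8SIA1, the synthase of GD3, the precursor of GD2, had 0.637, 1.01 and 0.793 TPM in BE(2)-C against 0, 0 and 0.0181 TPM in Hep-G2, below 2 in every library, whereas B4GALNT1 was at similar levels in both lines.

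Epithelial genes set Hep-G2 apart in turn. Of 20 genes for junctions, keratins and their regulators, 18 passed the filter, 16 higher in Hep-G2, 1 (CGN, the tight junction protein cingulin) higher in BE(2)-C and 1 not called, with a median log2 fold change of 6.44 (7.14 with 4 genes at bounds and 4 at ratios). KRT18, the keratin of simple epithelia, had TPM of 1117, 1250.4 and 1199 in Hep-G2 against 1.03, 0.927 and 0.776 in BE(2)-C. Its partner KRT8 had 1121, 1201 and 1159.5 in Hep-G2 against 1.34, 1.143 and 0.907 in BE(2)-C. Both were above 1000 TPM in every Hep-G2 library and near 1 TPM in BE(2)-C. CDH1, the E-cadherin of adherens junctions, had 22.9, 22.0 and 23.8 TPM in Hep-G2 against 0, 0.0439 and 0.0808 TPM in BE(2)-C, a ratio of 563 (95% counting interval 193 to 2731). CDH2, the N-cadherin, was found in both lines at 81.6, 83.1 and 71.2 TPM in Hep-G2 against 103, 104 and 103 TPM in BE(2)-C, with a log2 fold change of -0.40 (SE 0.07) and no overlap between the groups. Of 20 mesenchymal neuroblastoma genes, 15 passed the filter, 7 higher in Hep-G2, 7 higher in BE(2)-C and 1 not called, with a median of 0.10 that turned to -0.27 with medians set equal. FN1, the matrix protein fibronectin, which the liver also secretes into plasma, had 2967, 2427 and 2819.9 TPM in Hep-G2 against 1.1197, 1.27 and 1.38 TPM in BE(2)-C. YAP1, the co-activator of the Hippo pathway, had 217, 186 and 215 TPM in Hep-G2 against 0, 0.0431 and 0.0793 TPM in BE(2)-C. In contrast to these genes, VIM, the filament protein vimentin, had 153, 155 and 140.5 TPM in BE(2)-C against 1.04, 1.18 and 0.712 TPM in Hep-G2 and TWIST1, a helix-loop-helix factor, 192, 214 and 207 TPM in BE(2)-C with 0 reads in Hep-G2. PRRX1, a factor of the mesenchymal neuroblastoma state, had at most 1 read in any library, and the factors TWIST2, RUNX2, MEOX1 and MEOX2 were listed at 0 in all 6.

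Regulators of tissue-specific splicing differed in both directions, with 9 of 17 tested genes (of 20) higher in Hep-G2, with 8 higher in BE(2)-C, against 49.5% and 35.3% of all tested protein-coding genes. Their median of 0.92 was the value of 1 gene at the edge of a gap between both blocks and turned to -0.33 with medians set equal. ESRP2, the epithelial splicing factor, had 39.6, 37.4 and 35.3 TPM in Hep-G2 against 0, 0.0975 and 0.0897 TPM in BE(2)-C. SRRM4, which drives neural microexons, had 15.8, 14.4 and 16.1 TPM in BE(2)-C against 0, 0 and 0 TPM in Hep-G2. Each was clearly expressed in every library of one line and at or near 0 in the other. NOVA2, a neuronal splicing factor, had 27.7, 24.3 and 21.8 TPM in BE(2)-C against 0, 0 and 0.0302 TPM in Hep-G2, while A1CF, a partner of the editing enzyme of APOB messages in liver, had 69.5, 58.7 and 67.9 TPM in Hep-G2 against 0, 0 and 0 TPM in BE(2)-C, at least 2501-fold higher in Hep-G2. PTBP1, a repressor of neuronal exons, was higher in BE(2)-C, with 427, 387 and 392 TPM in BE(2)-C against 186, 183 and 194 TPM in Hep-G2 (log2 fold change -1.10, SE 0.05). Its neuronal paralogue PTBP2 was low, with 5.05, 5.17 and 4.50 TPM in Hep-G2 against 2.27, 2.98 and 2.43 TPM in BE(2)-C, and higher in each Hep-G2 library.

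**Figure D3:**
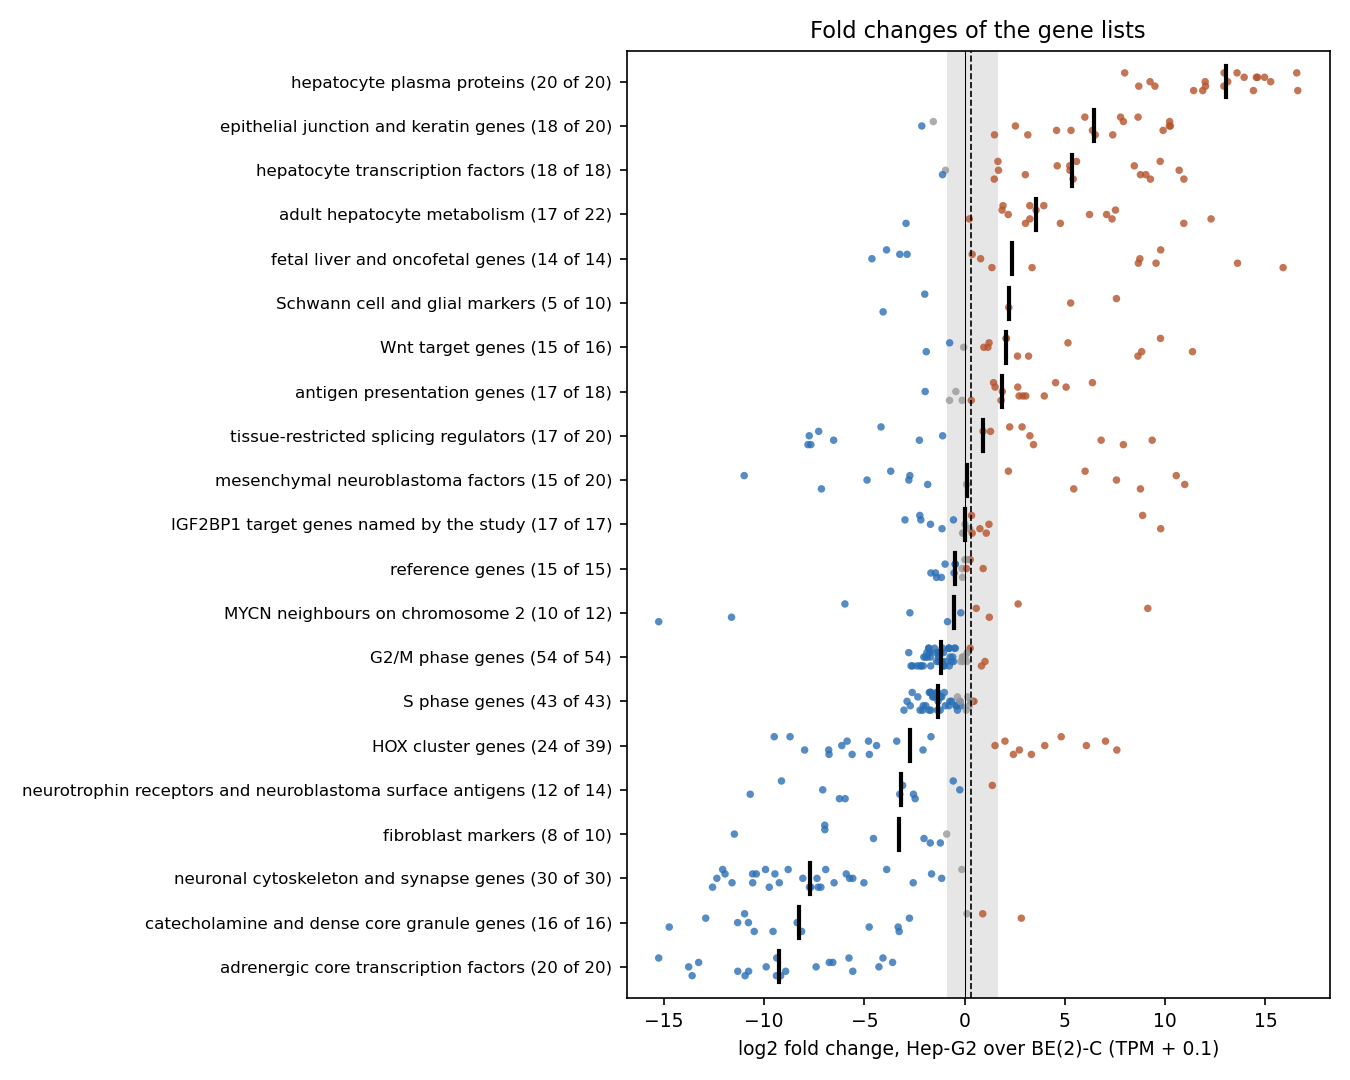
Each point is the log2 fold change, Hep-G2 over BE(2)-C on log2(TPM + 0.1), of 1 tested gene of the list named at the left (tested genes of all listed genes in brackets), in brown where limma called it higher in Hep-G2, in blue where higher in BE(2)-C and in grey where not called, and thick bars are medians. The dashed line is the median of all 14732 tested protein-coding genes (0.33), the grey band spans the middle 50% of these genes (-0.85 to 1.62), and the plasma protein and adrenergic lists lie outside the band on opposite sides, with the scaling shift of 0.36 small against these lists.

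Genes of antigen presentation were higher in Hep-G2 in 13 of 17 tested cases (of 18), 1 (HLA-C) was higher in BE(2)-C and 3 were not called, with a median log2 fold change of 1.88 (1.69 with medians set equal). B2M, the light chain of MHC class I, had TPM of 148, 149.6 and 125 in Hep-G2 against 150.1, 154 and 155 in BE(2)-C. All 3 Hep-G2 libraries lay just below all 3 of BE(2)-C, and B2M was not called (log2 fold change -0.12, limma adjusted p = 0.18). Of the heavy chains, HLA-E had 14.4, 16.2 and 12.6 TPM in Hep-G2 against 0.318, 0.273 and 0.420 TPM in BE(2)-C and HLA-C 2.85, 1.55 and 2.62 TPM in Hep-G2 against 7.92, 7.68 and 12.5 TPM in BE(2)-C, in opposite directions. TAP1, of the peptide transporter, had 1.89, 1.51 and 1.72 TPM in Hep-G2 against 0.0516, 0 and 0 TPM in BE(2)-C and PSMB8, of the immunoproteasome, 4.07, 2.63 and 2.48 TPM in Hep-G2 against 0, 0.135 and 0 TPM in BE(2)-C. Both were low in Hep-G2, and each had 1 read in BE(2)-C. Reads of HLA genes can be split or lost between near-identical genes, so their levels are uncertain, and the exons of HLA-B overlap another gene over 47.3% of their length.

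Target genes of Wnt signalling were higher in Hep-G2 in 12 of 15 tested cases (of 16), 2 (LEF1 and TCF7L2) were higher in BE(2)-C and 1 was not called, with a median log2 fold change of 2.08 (1.72 with medians set equal). The list also holds factors of the pathway itself, LEF1 and TCF7L2 as well as TCF7 and CTNNB1, which were among the 12 higher in Hep-G2. AXIN2, a scaffold of the complex that degrades beta-catenin, had TPM of 112, 109 and 117 in Hep-G2 against 0.226, 0.104 and 0.239 in BE(2)-C. SP5, a zinc finger factor, had 344, 343 and 342 in Hep-G2 against 0, 0 and 0.121 in BE(2)-C. Both were above 100 TPM in each Hep-G2 library and below 1 TPM in each BE(2)-C library, with a log2 fold change of 8.64 (SE 0.21) for AXIN2 and a ratio of 8423 (95% counting interval 1512 to 332679) for SP5. NKD1, an inhibitor of the pathway, had 139.8, 131 and 139 TPM in Hep-G2 against 0.149, 0.218 and 0.244 TPM in BE(2)-C and the hydrolase NOTUM, which inactivates Wnt ligands, 294, 301.3 and 307 TPM in Hep-G2 against 8.22, 8.89 and 8.02 TPM in BE(2)-C. LGR5, the receptor of R-spondins, was also expressed in BE(2)-C, at 111, 96.3 and 101 TPM in Hep-G2 against 42.6, 47.3 and 47.9 TPM in BE(2)-C (log2 fold change 1.16, SE 0.07). CTNNB1, which encodes beta-catenin, had 364, 348 and 356 TPM in Hep-G2 against 79.6, 88.7 and 84.5 TPM in BE(2)-C, with all Hep-G2 libraries above all of BE(2)-C. TBX3 was not called, with 139.6, 126 and 147 TPM in Hep-G2 against 136, 140.2 and 149 TPM in BE(2)-C in overlapping groups.

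Paralogues were compared as pairs chosen for this contrast. Of 22 pairs of paralogues, the leading member differed between the lines in 7. Not every pair set a member associated with liver or wide expression against one associated with neurons, for example PKLR and PKM or IGF2BP2 and IGF2BP3. The first member was called higher in Hep-G2 in 14 pairs and the second member higher in BE(2)-C in 16, both at once in 10, and PTBP1 and PTBP2 were called the other way round. Since 49.5% and 35.3% of all tested protein-coding genes were called in these directions, the counts say little about pairs as such. MYC had TPM of 183, 191 and 196 in Hep-G2 against 0.158, 0.633 and 0.2495 in BE(2)-C. Set beside the MYCN values above, Hep-G2 made MYC and almost no MYCN, whereas BE(2)-C made MYCN and almost no MYC, with 12 reads of MYC in its 3 libraries. The lactate dehydrogenase subunit LDHA had 623, 619 and 615 TPM in Hep-G2 against 11.3, 11.3 and 13.7 TPM in BE(2)-C. LDHB, the other subunit of the tetramer, had 0.598, 0.651 and 0.967 TPM in Hep-G2 against 1798, 2028 and 1883 TPM in BE(2)-C. The 2 subunits were therefore exchanged, with log2 fold changes of 5.67 (SE 0.08) for LDHA and -11.17 (SE 0.16) for LDHB, and no library held high levels of both. GATA6 led over GATA3 in Hep-G2, at 11.8, 11.5 and 12.96 TPM in Hep-G2 against 2.997, 4.26 and 3.86 TPM in BE(2)-C, and GATA3 over GATA6 in BE(2)-C. The ubiquitin hydrolase UCHL3 had 27.7, 32.3 and 30.3 TPM in Hep-G2 against 7.82, 11.1 and 8.91 TPM in BE(2)-C against the values of UCHL1 above, and the hexokinase HK1 201, 183 and 193 TPM in BE(2)-C against 8.19, 7.08 and 6.13 TPM in Hep-G2 against 60.2, 60.0 and 59.9 in BE(2)-C against 27.2, 25.9 and 27.5 in Hep-G2 for HK2. HK1 led in every BE(2)-C library and HK2 in every Hep-G2 library, although both were higher in BE(2)-C. PKM, the pyruvate kinase of most tissues, led over the liver enzyme PKLR in both lines, with 556, 570.1 and 566 TPM in Hep-G2 against 1506, 1365 and 1372 TPM in BE(2)-C against 10.6, 9.11 and 10.52 in Hep-G2 against 0.0903, 0 and 0.0953 in BE(2)-C for PKLR.

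**Figure D4:**
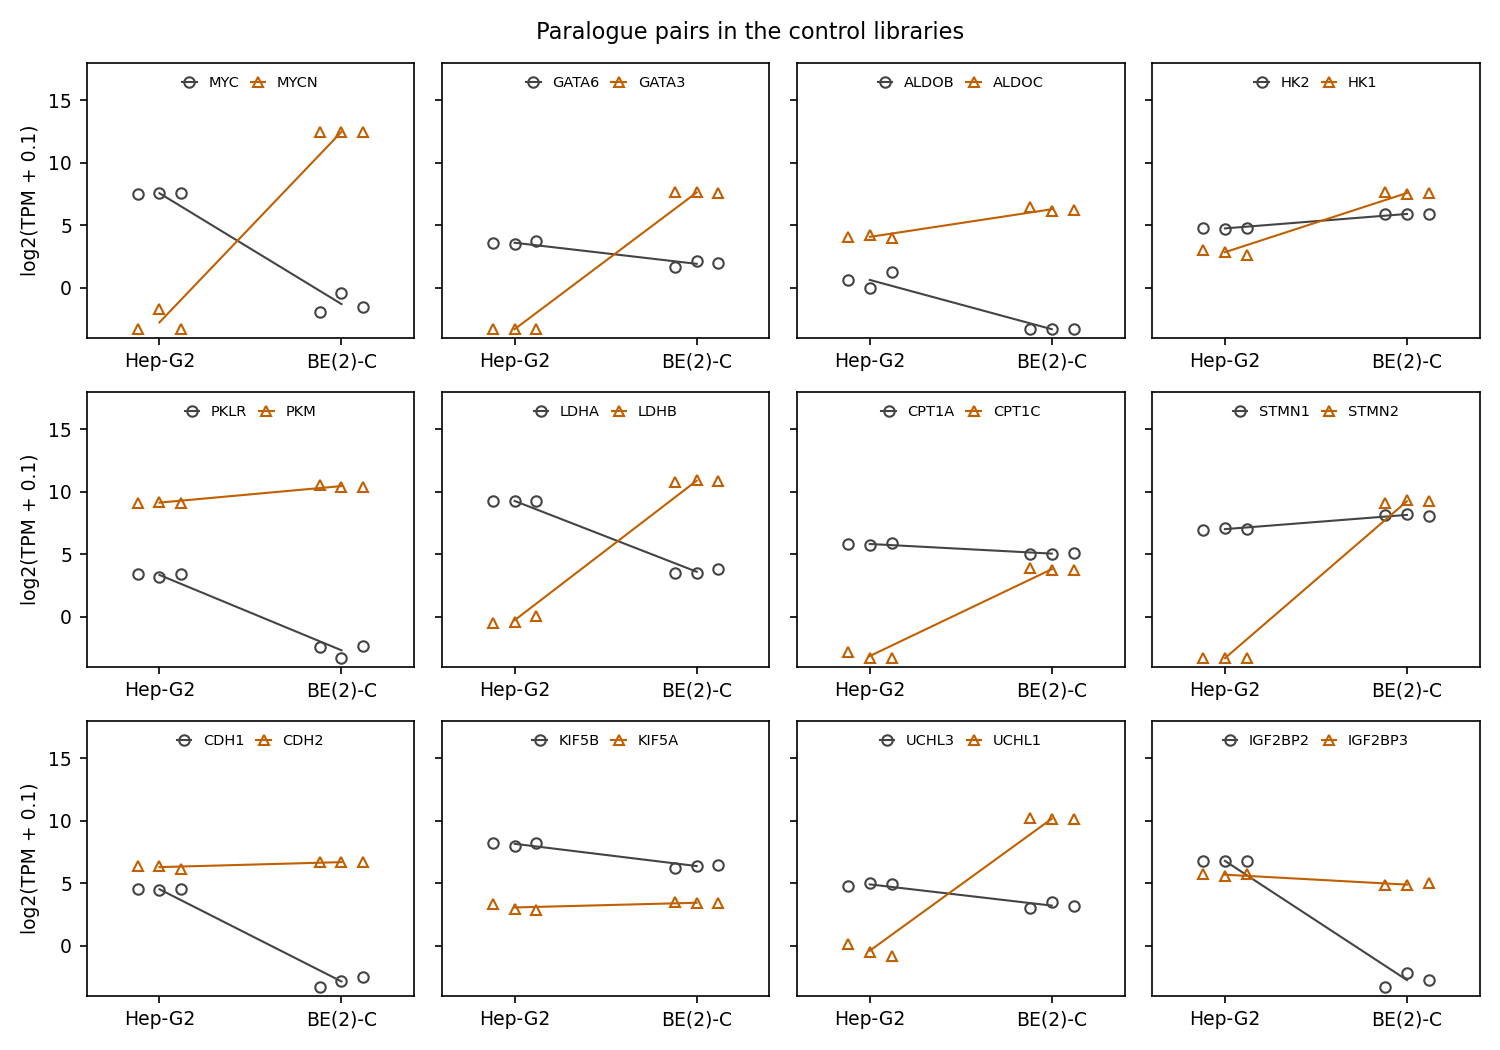
The panels show 12 of the 13 pairs of paralogues whose leading member differed between the lines or whose first member was called higher in Hep-G2 and second member higher in BE(2)-C, with log2(TPM + 0.1) of each of the 3 libraries per line as open symbols (circles for the first member, triangles for the second) and lines joining the means of the log values. MYC and MYCN, LDHA and LDHB, GATA6 and GATA3 and UCHL3 and UCHL1 cross between Hep-G2 and BE(2)-C, while in KIF5B and KIF5A or CDH1 and CDH2 the order is the same in both lines.

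The HOX clusters, whose genes give cells their position along the body axis, divided by cluster. Of 39 HOX genes 24 passed the filter, 10 higher in Hep-G2, with 14 higher in BE(2)-C, with a median log2 fold change of -2.73, also with bounds and ratios. This median ran from -4.80 to -0.37 over the filters that were tried. The sums over the 11 genes of HOXA were 47.3, 43.9 and 43.6 TPM in Hep-G2 and 0, 0.163 and 0 TPM in BE(2)-C. For the 9 genes of HOXC they were 6.05, 5.65 and 4.32 TPM in Hep-G2 and 292, 296 and 265 TPM in BE(2)-C. HOXA genes were thus found in Hep-G2 and HOXC genes mainly in BE(2)-C. A HOXA gene could pass the filter only through Hep-G2. Of the 24 tested HOX genes, 17 had 0 reads in one line, among them HOXC4 and HOXD9, and passed only through the other line. The direction of all these calls says little. HOXC8 had 91.7, 102 and 90.4 TPM in BE(2)-C against 1.35, 1.17 and 1.25 TPM in Hep-G2 and HOXC4 77.1, 74.8 and 64.9 TPM in BE(2)-C, the latter with 0 reads in Hep-G2. HOXA3 had 19.3, 19.7 and 18.5 TPM in Hep-G2 and 0 reads in BE(2)-C. In HOXD, HOXD1 was higher in Hep-G2, with 23.8, 25.1 and 26.8 TPM in Hep-G2 against 1.44, 1.65 and 1.39 TPM in BE(2)-C, and 6 other genes were higher in BE(2)-C, led by HOXD9 with 27.2, 27.3 and 21.5 TPM and 0 reads in Hep-G2. The 10 genes of HOXB summed to below 0.3 TPM in every library of either line.

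Cell cycle genes were higher in BE(2)-C. Of 43 S phase genes 35 were higher in BE(2)-C, 2 higher in Hep-G2 and 6 not called, with a median log2 fold change of -1.32 (-1.69 with medians set equal) and sums of 2423, 2378 and 2343 TPM in Hep-G2 against 4608, 4928 and 4738 TPM in BE(2)-C. Of 54 G2/M phase genes, 43 were higher in BE(2)-C, 3 higher in Hep-G2 and 8 not called, with a median of -1.16 (-1.52 with medians set equal). Both shifts were in the same direction under each scaling that was tried. MCM5, of the replicative helicase, had TPM of 177, 173 and 169 in BE(2)-C against 37.9, 35.1 and 38.0 in Hep-G2. AURKB, a kinase of mitosis, had 223, 211 and 219 in BE(2)-C against 33.0, 35.9 and 38.85 in Hep-G2. MKI67, the source of the Ki-67 antigen, had 81.4, 84.9 and 85.8 in BE(2)-C against 42.9, 33.5 and 39.3 in Hep-G2. In these 3 genes, of which MCM5 and AURKB were picked from the lists after their values were seen, all BE(2)-C libraries were above all Hep-G2 libraries. Growth rates were not measured here.

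The most abundant protein-coding messages of BE(2)-C were those of ribosomal proteins and glycolysis, with RPS2, GAPDH, RPL13A and RPL41 among the 5 most abundant. RPS2 had TPM of 9004, 9227 and 8501 in BE(2)-C against 1755, 1899 and 1753 in Hep-G2. GAPDH, of glycolysis, had 8038, 7211 and 7268 in BE(2)-C against 2629, 2858 and 2747 in Hep-G2. Both were higher in each BE(2)-C library, with log2 fold changes of -2.31 and -1.45. The 84 ribosomal protein genes took 13.6% ± 0.447 (SD, n = 3) of TPM in BE(2)-C and 6.77% ± 0.308 (SD, n = 3) in Hep-G2. In Hep-G2 the most abundant protein-coding genes were FTL, the ferritin light chain, with 17601, 19539 and 18429 TPM in Hep-G2 against 2710.1, 2331 and 2459 TPM in BE(2)-C, and TMSB10, an actin-binding thymosin, with 12794, 14848 and 12981 TPM in Hep-G2 against 2660.4, 2561 and 2545 TPM in BE(2)-C, followed by ALB, APOA2 and EEF1A1. FTL and TMSB10 were at least 4-fold higher in Hep-G2 but also abundant in BE(2)-C. The 10 most abundant genes took 8.69% ± 0.207 (SD, n = 3) of TPM in Hep-G2 and 7.32% ± 0.961 (SD, n = 3) in BE(2)-C. Levels set on equal sums move with such shares. The 37 mitochondrially encoded genes were listed at 0 in all 6 libraries for a reason not given in the sources used here, while their nuclear pseudogene copy MTATP6P1, chosen after its values were seen, had 4731, 5136 and 5158 TPM in Hep-G2 against 7206, 7093 and 7204 TPM in BE(2)-C. Reads can be misplaced between such a copy and the mitochondrial genes, so the level of MTATP6P1 is uncertain. The source of its reads was not tested.

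Of 15 reference genes used to normalize expression, 8 were higher in BE(2)-C, 3 higher in Hep-G2 and 4 not called, with a median log2 fold change of -0.47 (-0.83 with medians set equal). ACTB, of the actin cytoskeleton, had TPM of 3577, 3916 and 3714 in Hep-G2 against 4349, 3885 and 3823 in BE(2)-C. HSP90AB1, a chaperone, had 3549.8, 3536 and 3553 in Hep-G2 against 3782, 3826 and 3719 in BE(2)-C. The levels of these genes were alike to within the log2 limits of 0.5 set here for like levels when sums were set equal, although HSP90AB1 was called with a log2 fold change of -0.09 (limma adjusted p = 0.027). In all, 1687 protein-coding genes and 12 lincRNAs had a 95% interval of the log2 fold change within 0.5 of 0. By mean TPM they were led by EEF1A1, an elongation factor of translation, RPS12, ACTB, HSP90AB1 and ACTG1. This rests on the scaling. With medians set equal, the intervals ran from -0.644 to -0.306 for RPS12, from -0.695 to -0.237 for ACTB and from -0.585 to -0.320 for HSP90AB1, past the limit, and 693 of the 1687 protein-coding genes stayed within it. GSTP1, a glutathione transferase, was by contrast among the 10 largest fold changes towards BE(2)-C, with 1537, 1415 and 1386 TPM in BE(2)-C against 0, 0.145 and 0.137 TPM in Hep-G2 and a ratio of 15733 (95% counting interval 4355 to 129913).

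Of 1763 tested lincRNAs, 787 (44.6%) were higher in Hep-G2, with 436 (24.7%) higher in BE(2)-C, and 593 (33.6%) and 354 (20.1%) were so by at least 4-fold. Their median log2 fold change was 0.97 (0.91 with 582 lincRNAs at bounds and 369 at ratios), against 0.33 for protein-coding genes, and their median absolute log2 fold change was 2.32 against 1.26. The share called was 69.4% of lincRNAs and 84.8% of protein-coding genes. The share called with at least 4-fold differences was 53.7% of lincRNAs and 33.7% of protein-coding genes, but 19.6% and 23.5% with a pseudocount of 1, so the order of the gene types turns with the pseudocount. MEG3, an imprinted RNA of the locus that also holds DLK1, had TPM of 126, 118 and 145 in BE(2)-C against 0, 0.0176 and 0.0166 in Hep-G2. It was high in every BE(2)-C library and had 2 reads in Hep-G2, a ratio of 11599 (95% counting interval 3211 to 95780.0). NHEG1, a lincRNA first described as expressed in neuroblastoma, had 77.4, 65.9 and 73.2 TPM and AL445218.1, of no described function here, 129, 142 and 147 TPM in BE(2)-C, both with 0 reads in Hep-G2. In the other direction, LINC02365 had 127, 124 and 112 TPM in Hep-G2 against 0.186, 0 and 0 TPM in BE(2)-C. CASC19, from the gene desert beside MYC on chromosome 8, had 80.6, 80.1 and 85.7 TPM in Hep-G2 from 342 reads and 0 reads in BE(2)-C, at least 119.8-fold higher. LINC02313 had 191, 194 and 196 TPM in Hep-G2 against 0, 0 and 1.36 TPM in BE(2)-C, from 1207 and 3 reads of a short transcript. These 3 lincRNAs were present in each Hep-G2 library and at most 3 reads were counted over BE(2)-C.

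Restriction to 1 line was measured as at least 1 TPM in all 3 libraries of one line and at most 0.1 TPM in all 3 of the other. It held for 686 protein-coding genes in Hep-G2 and 680 in BE(2)-C, together 10.52% of the 12990 detected in at least one line, and for 179 and 123 lincRNAs, together 32.7% of 923. Among protein-coding genes the share fell with the level, from 32.2% of those with a mean of 1 to 2 TPM in the higher line to 5.22% of those with 50 TPM and over. Among lincRNAs it was 35.8% in the lowest bin and 31.0% in the highest, which holds only 29 lincRNAs. Genes near 1 TPM rest on few reads, and the median protein-coding gene restricted to Hep-G2 had 576.5 reads against 50 for the median lincRNA. With FPKM as deposited, a unit in which the same limits stand for higher levels, 93 and 72 lincRNAs and 766 and 701 protein-coding genes were restricted to Hep-G2 and BE(2)-C. Asking for 0 in the other line left 171 and 115 lincRNAs and 425 and 352 protein-coding genes. No test was made of this difference between gene types. The bar chart by level shows both courses.

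**Figure D5:**
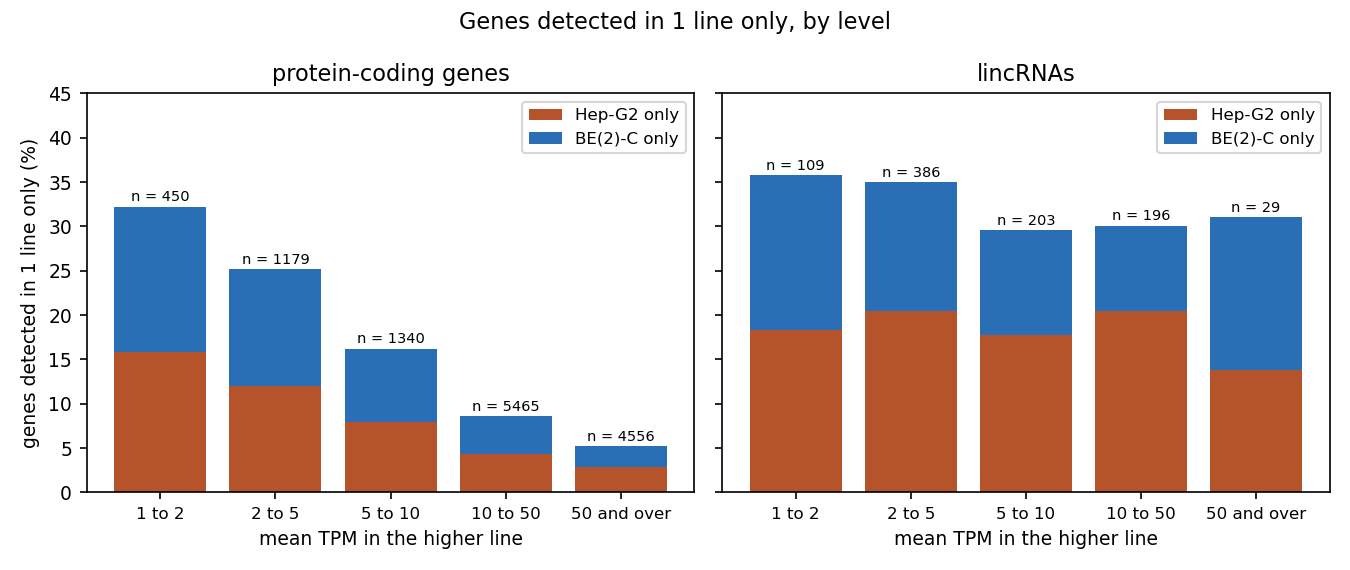
Bars give the percentage of detected genes that were found in 1 line only (Hep-G2 in brown, BE(2)-C in blue), for protein-coding genes (left) and lincRNAs (right), in bins of the mean TPM in the line where the gene was higher, with the number of detected genes above each bar. The percentage falls from 32.2% to 5.22% over the bins of protein-coding genes and lies between 29.6% and 35.8% in those of lincRNAs.

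Markers of other lineages were looked at as a check of the lines. Of 10 endothelial markers 3 passed the filter, 2 higher in Hep-G2, with summed levels of 3.23, 3.49 and 4.50 TPM in Hep-G2 against 0.153, 0.296 and 0.228 TPM in BE(2)-C, TIE1 being the most abundant in Hep-G2, and ERG and EMCN listed at 0 in all libraries. Of 10 leukocyte markers 4 passed, 2 higher in Hep-G2 and CD14 higher in BE(2)-C, and PTPRC and MS4A1 were at 0 in all libraries, with sums of 5273, 5043 and 5246 TPM in Hep-G2 against 8.27, 4.83 and 7.31 TPM in BE(2)-C. In Hep-G2 this sum was almost wholly LYZ, the gene of lysozyme, at 5266, 5036 and 5241 TPM in Hep-G2 against 0.134, 0 and 0 TPM in BE(2)-C, with exons that overlap another gene over 34.7% of their length. LYZ was also among the 10 largest fold changes towards Hep-G2. Of 10 fibroblast markers 8 passed and 7 were higher in BE(2)-C, with sums of 3.69, 3.66 and 4.38 TPM in Hep-G2 against 441, 399.7 and 419 TPM in BE(2)-C. The most abundant was THY1, a surface protein that neurons also carry, with 341, 312 and 316 TPM in BE(2)-C against 0.0430, 0 and 0 TPM in Hep-G2, while the collagen gene COL1A1 had 3.37, 2.13 and 1.70 in BE(2)-C against 1.01, 0.988 and 0.828 in Hep-G2 and FAP and POSTN had at most 4 reads per line. Other fibroblast markers were clearly found in BE(2)-C. PDGFRB, a receptor of platelet-derived growth factor, had 59.9, 49.8 and 62.1 TPM in BE(2)-C against 2.14, 2.18 and 2.76 TPM in Hep-G2, and of the matrix proteoglycans LUM had 19.5, 21.9 and 24.6 TPM in BE(2)-C against 0, 0.184 and 0.0872 TPM in Hep-G2 and DCN 13.9, 12.5 and 13.5 TPM in BE(2)-C against 0, 0.0216 and 0 TPM in Hep-G2. Each BE(2)-C library was above each Hep-G2 library for these genes, and the part of fibroblast-like cells in the differences was not tested. Of 10 Schwann cell and glial markers 5 passed, 3 higher in Hep-G2, with 2 higher in BE(2)-C, with sums of 112, 101 and 104 TPM in Hep-G2 against 10.47, 8.21 and 9.03 TPM in BE(2)-C. ERBB3, a receptor of neuregulins that epithelial cells also carry, was the most abundant of them in Hep-G2, and SOX10 had 2 reads in all. The defining markers of endothelium, leukocytes and Schwann cells were thus at or near 0 in both lines, and hepatocyte and adrenergic markers followed the labels.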

How the data were processed

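The authors clipped reads with Cutadapt 1.14, aligned them to hg38 with HISAT2 2.1.0, counted them per gene with featureCounts 1.5.3 on Ensembl GRCh38.89 and scaled each line's table with edgeR 3.30.3 (TMM), and the unit FPKM of the deposited values was inferred from their form, not read from a header. Read numbers were recovered from FPKM and gene length. The deposited comparison columns hold fold changes and p-values of the knockdown and were not used.

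TPM were computed over 58174 listed genes, and log2(TPM + 0.1) was fitted with limma 3.58.1 (trend and empirical Bayes) in R 4.3.3 with Benjamini-Hochberg adjustment over tested genes of all types. The fit was tested on simulated data in which both lines were drawn from the Hep-G2 levels and few genes were changed. That setting holds no shift between the lines, so it does not bear on the choice of scaling. Genes named by rule were the 10 protein-coding genes and 3 lincRNAs with the largest fold changes per line, the 5 most abundant per line and the 5 most abundant with like levels. Members and lists were chosen with earlier results of these data known, and genes of a list were picked for the text after their values were seen. A few genes and 1 list are not reported here. Promoters were found for 11308 of 14732 tested protein-coding genes, and shares of motifs were not compared between groups of genes.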

Additional observations from a re-analysis of the deposited data

How the results depend on the processing

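The counts of calls depended most on the filter, the pseudocount and the scaling. With TPM of at least 1 in at least 3 libraries, 510 lincRNAs were higher in Hep-G2, with 275 higher in BE(2)-C, and 380 and 222 were so by at least 4-fold. A pseudocount of 1 left 206 and 139 lincRNAs with at least 4-fold differences and 1312 protein-coding genes towards BE(2)-C. FPKM as deposited changes the unit together with the scaling, so that the same limits and pseudocount stand for higher levels. It gave 368 lincRNAs at least 4-fold higher in Hep-G2, and 93 lincRNAs found only in Hep-G2, with 72 only in BE(2)-C. Median centring, on TPM, gave 539 lincRNAs at least 4-fold higher in Hep-G2. The parts of unit and scaling in the counts from FPKM were not told apart. Asking for 0 in the other line left 425 and 352 protein-coding genes found in Hep-G2 only and BE(2)-C only. An interval within 0.25 left 353 protein-coding genes and 0 lincRNAs with like levels.

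The median log2 fold change of the mesenchymal genes turned to -0.084 without the filter, -0.067 with FPKM as deposited, -0.27 with median centring and -0.039 with limma-voom on recovered reads, and rose to 2.18 with TPM of at least 1 in at least 3 libraries. That of the splicing regulators turned to -0.15 without the filter and -0.33 with median centring, and ranged from -0.11 to 1.03 when 1 library was left out. That of the IGF2BP1 targets turned to -0.15 with FPKM as deposited, -0.35 with median centring and -0.12 with limma-voom, and ranged from -0.028 to 0.036 when 1 library was left out. The medians of the other lists kept their sign. That of HOX genes was -0.37 without the filter, -4.80 with TPM of at least 1 in at least 3 libraries, -1.13 with a pseudocount of 1 and -3.96 with 0.01, and ranged from -2.90 to -1.68 when 1 library was left out. That of the neighbours of MYCN was -0.19 with MYCN left out of the list, an alternative added after the data were seen. The cause was not tested. Of single genes, the log2 fold change of ACTG1 turned to -0.045 with median centring (limma adjusted p = 0.64, lower in Hep-G2 in the mean). That of GCH1, not called, turned to -0.0445 with FPKM as deposited, -0.24 with median centring and -0.014 with limma-voom, and that of TBX3, not called, ranged from -0.096 to 0.013 when 1 library was left out.

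With 1 library left out, 7018 to 7185 protein-coding genes were higher in Hep-G2 and 5004 to 5160 in BE(2)-C. Libraries were not paired by replicate number in the main fit. Deviations of libraries with the same number correlated at -0.073, -0.057 and 0.051, and those with unlike numbers at -0.099 to 0.150. So few correlations cannot show whether libraries of the same number belong together. A fit with the number as a block gave 7138 and 5020 protein-coding genes and 779 and 439 lincRNAs. RN7SL2, which stood apart in 1 BE(2)-C library, was left out of the sums in an alternative chosen after seeing the data, with 7241 and 5227 protein-coding genes.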

Other observations

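RN7SL2, an RNA of the signal recognition particle chosen after its values were seen, had 681, 629 and 1501 TPM in Hep-G2 against 1275, 1994 and 23949.6 TPM in BE(2)-C. The third BE(2)-C library stood apart from the other 5, and the cause was not tested.

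Among 9791 protein-coding genes with at least 1 TPM in all 6 libraries, the median log2 fold change less that of all these genes was 0.81 on chromosome 18, 0.74 on chromosome 10 and 0.68 on chromosome 2, and -0.72 on chromosome 19 and -0.70 on chromosome 22. Copy number was not measured here.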
